A study of Homo sapiens with 6 samples.

Results

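The 10 genes described here encode chains and linkers of the basement membrane, and they were taken as the rows of the deposited gene table that carry the symbols COL4A1, COL4A2, COL4A5, COL4A6, LAMA4, LAMB1, LAMC1, NID1, NID2 and HSPG2. The table held 60748 genes, 18275 had enough counts to be tested, and all 10 were among those tested. RNA was sequenced from LX-2, an established human line of hepatic stellate cells, the pericytes of the liver sinusoid. LX-2Vector (n = 3 libraries) carried the empty lentiviral vector GV367, and LX-2FAP (n = 3) carried the same vector with fibroblast activation protein α (FAPα), a membrane serine protease. Both groups therefore share lentiviral infection, puromycin selection, the ubiquitin promoter and EGFP cassette of that vector, and 24 hours of culture, and they differ in the FAPα insert. The study's methods describe selection of stable clones, and the number of clones behind each group is not given in the sources used here, so a clone and FAPα cannot be told apart. The comparison asks how the RNA of these genes stood in cells with and without FAPα overexpression.

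Basement membranes are thin sheets of extracellular matrix under epithelia and around vessels. Type IV collagen chains join as trimers that crosslink into a network, laminin α, β and γ chains join as a trimer that polymerizes at the cell surface, and nidogens and perlecan bridge the network and the polymer. In the liver the sinusoid lacks a continuous basement membrane, and stellate cells are a known source of type IV collagen and laminin in the space of Disse.

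The promoters of the genes with groups that did not overlap are shown first, because a pair of collagen genes shares 1 of them and because the 3 linker genes are those that fell. Sequences are from RefSeq (GRCh38.p14), 250 bases before to 50 bases after the annotated start, and all 10 genes matched an entry (COL4A6 had 2). They are written 5′ to 3′ on the strand of the gene, in lower case, with capitals marking GGGCGG (the GC box), CCAAT (the CCAAT box), GCGGGGGCG (a site type of the zinc-finger factor EGR1) or their reverse complements. The EGR1-type letters can overlap a GC box. The COL4A2 window lies at chr13:110307034-110307333 on the plus strand and holds the starts of both COL4A1 and COL4A2, which are transcribed away from each other. NID1 lies at chr1:236065041-236065340, NID2 at chr14:52069010-52069309 and HSPG2 at chr1:21937261-21937560, all on the minus strand.
COL4A2: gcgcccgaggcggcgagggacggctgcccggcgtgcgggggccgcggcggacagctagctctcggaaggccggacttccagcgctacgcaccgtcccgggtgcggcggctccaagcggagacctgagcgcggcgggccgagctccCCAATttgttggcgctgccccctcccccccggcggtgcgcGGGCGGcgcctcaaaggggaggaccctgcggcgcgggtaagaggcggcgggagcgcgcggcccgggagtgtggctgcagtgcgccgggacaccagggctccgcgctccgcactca
NID1: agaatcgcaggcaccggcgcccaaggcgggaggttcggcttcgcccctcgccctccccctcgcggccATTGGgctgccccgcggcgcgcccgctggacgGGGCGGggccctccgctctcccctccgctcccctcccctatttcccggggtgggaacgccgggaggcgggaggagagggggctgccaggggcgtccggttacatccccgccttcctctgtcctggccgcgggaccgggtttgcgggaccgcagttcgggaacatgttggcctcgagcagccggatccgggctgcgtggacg
NID2: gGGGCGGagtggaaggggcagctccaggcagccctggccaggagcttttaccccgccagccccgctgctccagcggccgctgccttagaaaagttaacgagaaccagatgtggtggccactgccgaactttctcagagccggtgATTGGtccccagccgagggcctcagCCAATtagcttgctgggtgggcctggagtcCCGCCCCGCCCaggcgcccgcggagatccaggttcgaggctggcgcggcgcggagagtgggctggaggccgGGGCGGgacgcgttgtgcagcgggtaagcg
HSPG2: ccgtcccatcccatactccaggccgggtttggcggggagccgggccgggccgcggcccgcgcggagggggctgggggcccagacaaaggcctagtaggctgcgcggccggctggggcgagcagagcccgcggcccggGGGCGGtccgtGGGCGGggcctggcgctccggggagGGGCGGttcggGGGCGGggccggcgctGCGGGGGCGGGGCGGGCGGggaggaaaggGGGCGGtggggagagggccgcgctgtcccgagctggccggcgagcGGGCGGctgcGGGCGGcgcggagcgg

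The COL4A1 and COL4A2 starts were 127 bases apart and their windows shared 226 bases. COL4A5 and COL4A6 were also head to head on chromosome X, with the COL4A5 start 380 and 1416 bases from the pair of COL4A6 starts, and its window shared 121 bases with that of the nearer one. GC content was 83.3% in the HSPG2 window, 77.7% in that of COL4A2, 74.7% in that of NID1 and 69.0% in that of NID2, against a median of 58.7% over all 34943 windows of the same length. The GC box was found on either strand in 8 of the 11 windows of the 10 genes and in 44.9% of all windows, and HSPG2 held 10 matches where 5.11% of all windows held 5 or more. The CCAAT box was found in 6 of 11 windows and in 34.6% of all windows. The EGR1-type letters were found in 2 of 11 windows (LAMC1 and HSPG2) and in 5.06% of all, and TATAAA in 0 of 11 and in 11.6% of all. These matches describe the letters of the windows, and binding was not measured. Overlapping windows hold some sites in common, so the 26 GC box matches were 25 distinct sites and the 10 CCAAT matches were 7, and the windows are not independent.

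Libraries held 17355700 to 26352060 counts in genes, and mitochondrial genes took 2.53% to 2.84% of them. FAP itself rose from 2.28 ± 0.379 to 723 ± 112 CPM (counts scaled to the size of the library, SD, n = 3 each), a difference of 8.33 (SE 0.13) on the log2 scale (edgeR), as the labels of all 6 libraries state. Stellate markers summed to 1852 to 1956 CPM in LX-2Vector against 1916 to 2033 in LX-2FAP, with 6 of 9 above 1 CPM in some library, LRAT at 0 and DES and PDGFRA under 1 CPM throughout. VIM carried most of that sum, and without it the other 8 summed to 317.6 to 372.4 CPM in LX-2Vector and to a lower 236.9 to 305.7 in LX-2FAP, an alternative chosen after seeing the data. Endothelial markers, for cells that also build basement membrane, summed to 11.5 to 12.7 CPM in LX-2Vector against 8.67 to 11.4 in LX-2FAP. Of these, 4 of 8 (PECAM1, VWF, KDR and TEK) passed 1 CPM in some library, and CDH5, CLDN5, EMCN and ERG were at or below 0.379 CPM in every library. Epithelial markers summed to 284.5 to 285.4 CPM in LX-2Vector and 252.5 to 280.5 CPM in LX-2FAP. The 3 of 6 above 1 CPM were KRT8, KRT18 and CLDN4, with EPCAM, CDH1 and KRT19 under 1 CPM. KRT8 (145.3 to 169.7 CPM over the 6 libraries) and KRT18 (100.5 to 116.2 CPM) carried most of that sum, so some epithelial keratin RNA was present in both groups. Hepatocyte markers summed to 13.1 to 14.8 and 10.4 to 11.6 CPM, 1 of 6 (SERPINA1) above 1 CPM, with TTR at 0.

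Of the 10 genes, HSPG2, NID2 and NID1 fell in LX-2FAP, none rose, and 7 did not pass the test. The 3 that fell are the linkers of the basement membrane, and no type IV collagen or laminin chain among the 10 passed. Calls were made at an adjusted p under 0.05 in the quasi-likelihood test of edgeR, Benjamini-Hochberg adjusted over all tested genes, which called 5.29% of them, 2.73% lower and 2.57% higher. That split depended on the scaling: 51.5% of all calls were lower, against 77.2% with scaling by library size alone, 47.8% with DESeq2 size factors in edgeR, 26.8% with a gene length trend removed and 25.4% with a GC trend removed. The DESeq2 Wald test, which changes the test as well as the scaling, gave 39.6% lower. A fit of log2 FPKM values with limma called 2 genes of all tested and none of the 10. The log2 fold change was negative for 9 of the 10 genes and for 9685 of the 18275 tested genes. The median was -0.12 for the 10 against -0.01 over all tested genes. With the GC trend removed, COL4A1 (0.07) and COL4A2 (0.04) turned positive. The 3 libraries of each group did not overlap for 4 of the 10 genes (COL4A2, NID1, NID2 and HSPG2), all lower in LX-2FAP, where 13.4% of all tested genes showed that pattern. At the study's cutoff of a fold change over 1.2 with P under 0.05, taken here as unadjusted, NID2 and HSPG2 were lower, where 6.44% of all tested genes were. In bulk RNA, fewer cells expressing a gene and less of its RNA per cell cannot be told apart.

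**Figure D1:**
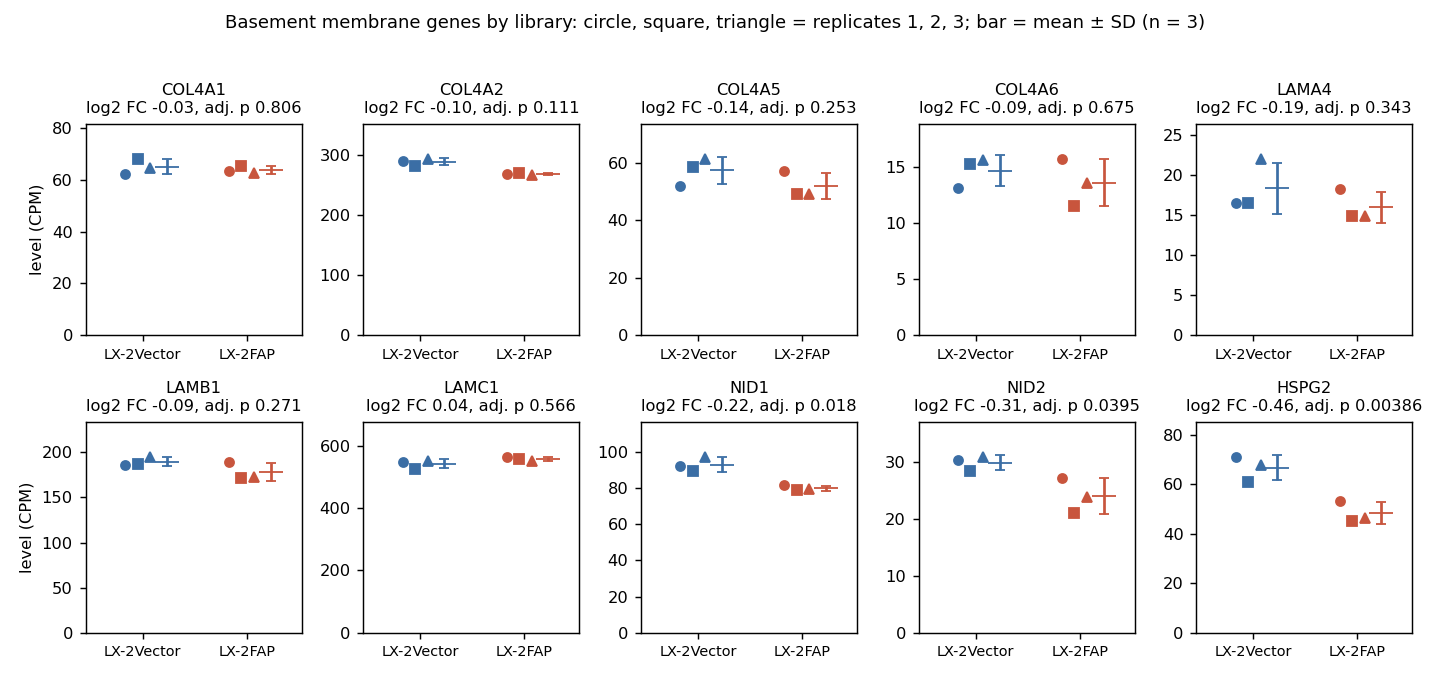
Level of each of the 10 genes (y axis, CPM, from 0) in the 3 LX-2Vector (blue) and 3 LX-2FAP (red) libraries, with mean ± SD beside the points and the edgeR log2 fold change and adjusted p above. The groups separate for COL4A2, NID1, NID2 and HSPG2, from 61.0 to 71.0 CPM down to 45.3 to 53.2 CPM in HSPG2.

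Among the 10 genes the linkers had the largest log2 fold changes, with LAMA4 (-0.19, not called) close to NID1 (-0.22). Of the 6 tested laminin chains outside the 10, LAMA3 (-0.38), LAMA5 (-0.38) and LAMB2 (-0.305) also fell, and none rose. HSPG2 (ENSG00000142798, chr1:21822245-21937297, minus strand, GRCh38, 99 exon blocks) encodes perlecan, a heparan sulfate proteoglycan that ties the network to growth factors and to the cell surface. Its level was 71.0, 61.0 and 67.8 CPM in LX-2Vector replicates 1 to 3 and 53.2, 45.3 and 46.5 CPM in LX-2FAP replicates 1 to 3. Every LX-2FAP library lay below every LX-2Vector library, and replicate 1 was the highest of its group in both. The log2 fold change was -0.46 (SE 0.07, 95% interval -0.61 to -0.32), so the level fell by 27.45%, with an edgeR adjusted p of 0.00386. HSPG2 was called with any 1 library left out, at adjusted p 0.000186 to 0.0463 by edgeR. Its longest transcript was 64.5% GC, the highest of the 10 genes, and with a smooth trend on GC content removed from each library its log2 fold change was -0.30 (edgeR adjusted p 0.0106).

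NID1 (ENSG00000116962, chr1:235975830-236065162, minus strand) encodes nidogen-1, which binds laminin γ1 and type IV collagen at once. It stood at 92.2, 89.1 and 97.2 CPM in LX-2Vector against 81.5, 79.1 and 79.2 CPM in LX-2FAP. The LX-2FAP libraries lay close together and below all LX-2Vector libraries. The log2 fold change was -0.22 (SE 0.05, 95% interval -0.32 to -0.12), so the level fell by 13.9%, with an edgeR adjusted p of 0.0180. The call was lost without LX-2Vector replicate 3 (adjusted p 0.0761), LX-2FAP replicate 2 (0.0815) or LX-2FAP replicate 3 (0.137). With a smooth GC trend removed the log2 fold change of NID1 was -0.16 and the edgeR adjusted p 0.0488, just under the threshold.

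NID2 (ENSG00000087303, chr14:52004803-52069228, minus strand) encodes nidogen-2, the paralog with overlapping binding partners. Its level was 30.4, 28.4 and 30.9 CPM in LX-2Vector against 27.3, 21.1 and 23.8 CPM in LX-2FAP. All LX-2FAP libraries were lower, with replicate 1 nearest to the LX-2Vector range and replicate 2 farthest from it. The log2 fold change was -0.31 (SE 0.08, 95% interval -0.48 to -0.14), so the level fell by 19.3%, with an edgeR adjusted p of 0.0395. It was called in 1 of the 6 fits that left out a library, that without LX-2FAP replicate 1, and the other 5 gave adjusted p from 0.0586 to 0.180. With the GC trend removed the log2 fold change was -0.25 and the adjusted p 0.0800.

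Exons of other genes on the opposite strand cover part of the NID2 and HSPG2 loci. Use of strand in counting is not given in the sources used here. RTRAF, a subunit of the tRNA ligase complex, overlaps 30.0% of the NID2 exon bases. It stood at 182 ± 4.45 CPM in LX-2FAP against 169 ± 0.316 CPM in LX-2Vector (SD, n = 3 each) and was not called (edgeR adjusted p 0.119). LDLRAD2 overlaps 11.7% of the HSPG2 exon bases and was at or below 0.285 CPM in every library. Overlap was smaller in LAMB1 (3.6%), LAMA4 (1.78%) and COL4A2 (0.492%), and NID1 had no exon overlap. The part of these overlaps in the counts was not tested.

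**Figure D2:**
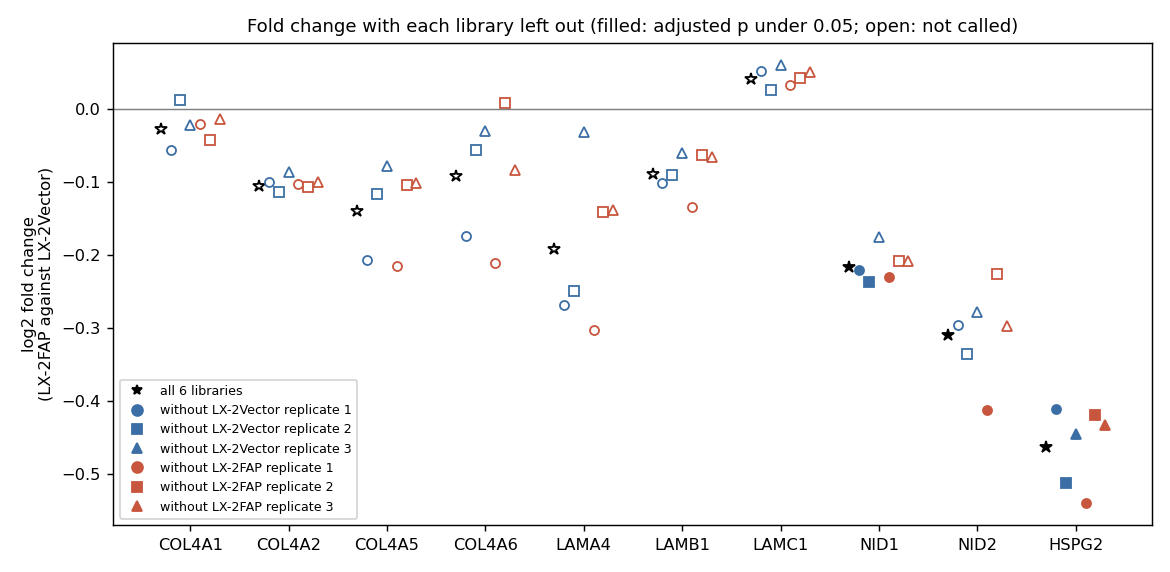
Log2 fold change of each of the 10 genes (y axis, LX-2FAP against LX-2Vector) with all 6 libraries (star) and with each library left out (blue, LX-2Vector; red, LX-2FAP; circle, square and triangle, replicates 1, 2 and 3), filled where the edgeR adjusted p was under 0.05. HSPG2 stays filled from -0.54 to -0.41, NID2 is filled with all libraries and without LX-2FAP replicate 1, and COL4A1 and COL4A6 each cross 0 once.

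No type IV collagen chain passed the test. COL4A1 (ENSG00000187498, chr13:110148963-110307233, minus strand) and COL4A2 (ENSG00000134871, chr13:110305812-110513209, plus strand) encode the α1 and α2 chains, which form the α1α1α2 trimer found in nearly all basement membranes. COL4A1 was at 62.5, 68.2 and 64.8 CPM in LX-2Vector against 63.5, 65.5 and 62.8 CPM in LX-2FAP. The ranges overlapped almost wholly. Its log2 fold change was -0.03 (95% interval -0.13 to 0.08, edgeR adjusted p 0.806), and the sign turned without LX-2Vector replicate 2 (0.01), with the gene length trend removed (0.02) and with the GC trend removed (0.07).

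COL4A2 was at 289.8, 282.1 and 293.5 CPM in LX-2Vector against 268.4, 269.6 and 266.9 CPM in LX-2FAP. The groups did not overlap, and the LX-2FAP libraries stood close together. The difference was small, a log2 fold change of -0.10 (SE 0.04, 95% interval -0.18 to -0.02), and the edgeR adjusted p of 0.111 missed the threshold. Scaled by library size alone it passed, at -0.13 (adjusted p 0.0487), and with the GC trend removed it was 0.04 (0.569).

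COL4A5 (ENSG00000188153, chrX:108439844-108697545, plus strand) and COL4A6 (ENSG00000197565, chrX:108155607-108439497, minus strand) encode the α5 and α6 chains, which assemble as α5α5α6 in smooth muscle and some epithelial basement membranes. COL4A5 was at 52.0, 58.6 and 61.3 CPM in LX-2Vector against 57.0, 49.2 and 49.2 CPM in LX-2FAP. Replicate 1 was the lowest LX-2Vector library and the highest LX-2FAP library, and the groups overlapped there alone. Its log2 fold change was -0.14 (95% interval -0.29 to 0.01, edgeR adjusted p 0.253). COL4A6 was at 13.1, 15.3 and 15.7 CPM against 15.8, 11.6 and 13.6 CPM, again with replicate 1 lowest in LX-2Vector and highest in LX-2FAP. Its log2 fold change was -0.09 (95% interval -0.32 to 0.14, adjusted p 0.675) and 0.01 without LX-2FAP replicate 2.

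The remaining collagen IV genes were nearly silent. COL4A3 and COL4A4, the partners of α5 in the kidney glomerulus, stood at 0.342 to 1.06 CPM and 0.477 to 0.833 CPM over the 6 libraries, with log2 fold changes of 0.00 (95% interval -0.79 to 0.79) and -0.27 (-0.87 to 0.33). At 6 to 22 counts per library these intervals were wide, and neither gene was called.

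Laminin chains did not pass the test among the 10 genes. LAMA4 (ENSG00000112769, chr6:112108760-112254939, minus strand) encodes α4, an α chain of vascular and mesenchymal laminins, and was at 16.6, 16.5 and 22.1 CPM in LX-2Vector against 18.3, 14.8 and 14.9 CPM in LX-2FAP. LX-2Vector replicate 3 stood above all other libraries, and the rest of the ranges overlapped. The log2 fold change was -0.19 (SE 0.11, 95% interval -0.43 to 0.05, edgeR adjusted p 0.343), and -0.03 without LX-2Vector replicate 3.

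LAMB1 (ENSG00000091136, chr7:107923799-108003255, minus strand) encodes β1 and was at 186.0, 187.0 and 195.0 CPM in LX-2Vector against 189.4, 171.8 and 172.6 CPM in LX-2FAP. LX-2FAP replicate 1 lay within the LX-2Vector range and the other LX-2FAP libraries below it. The log2 fold change was -0.09 (95% interval -0.19 to 0.01, edgeR adjusted p 0.271). LAMC1 (ENSG00000135862, chr1:183023460-183145592, plus strand) encodes γ1, the γ chain of most laminins, and was at 548.5, 524.8 and 551.4 CPM against 564.3, 556.9 and 550.7 CPM. It was the 1 gene of the 10 with a positive log2 fold change, 0.04 (95% interval -0.04 to 0.12, adjusted p 0.566), and the groups overlapped.

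Levels can be compared between genes per length, in FPKM (fragments scaled to gene length and library size). LAMC1 was the highest of the 10 in both groups, at 64.6 ± 1.60 FPKM in LX-2Vector and 65.2 ± 0.936 FPKM in LX-2FAP (SD, n = 3 each). In LX-2Vector it was followed by NID1 (16.1 ± 0.716 FPKM), COL4A2 (15.1 ± 0.285), LAMB1 (10.3 ± 0.291), COL4A5 (4.87 ± 0.423), NID2 (4.72 ± 0.199), COL4A1 (4.48 ± 0.216), HSPG2 (3.70 ± 0.272), COL4A6 (1.60 ± 0.157) and LAMA4 (1.55 ± 0.271). Neighbours in that order overlapped between libraries for COL4A5 and NID2, NID2 and COL4A1, and COL4A6 and LAMA4. In LX-2FAP, COL4A2 (13.8 ± 0.0760 FPKM) and NID1 (13.6 ± 0.264) overlapped, as did COL4A5 (4.31 ± 0.385), COL4A1 (4.31 ± 0.0922) and NID2 (3.72 ± 0.490) in sequence and COL4A6 (1.45 ± 0.227) and LAMA4 (1.32 ± 0.165), while LAMB1 stood at 9.46 ± 0.549 and HSPG2 at 2.64 ± 0.239 FPKM. The place of LAMB1 depends on its length: the table used 18592 bases where GENCODE 29 gives 8140, and with the latter LAMB1 would be at 23.4 ± 0.666 and 21.6 ± 1.25 FPKM, next to LAMC1 in both groups.

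**Figure D3:**
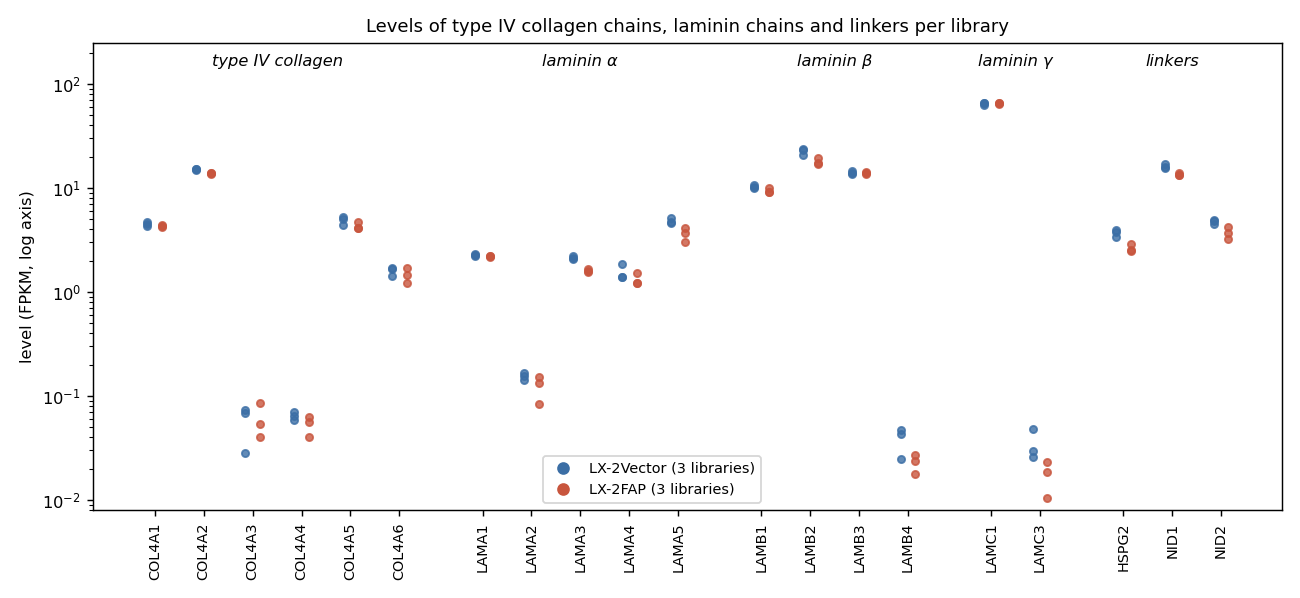
Level (y axis, FPKM, log axis) of the type IV collagen chains, laminin chains and linkers in the 3 LX-2Vector (blue) and 3 LX-2FAP (red) libraries, 1 point per library. LAMC1 is the highest at 64.6 FPKM in LX-2Vector, and COL4A3, COL4A4, LAMB4 and LAMC3 lie below 0.1 FPKM.

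Chains that assemble together were also set against each other as ratios of FPKM. COL4A1 over COL4A2 was 0.297 ± 0.0182 in LX-2Vector and 0.313 ± 0.00546 in LX-2FAP (SD, n = 3 each; exact 2-sided permutation p = 0.3). COL4A5 over COL4A6 was 3.05 ± 0.0554 and 2.99 ± 0.289 (exact p = 0.8), and NID1 over NID2 was 3.41 ± 0.0663 and 3.69 ± 0.422 (exact p = 0.4). LAMA4 over LAMC1 was 0.0239 ± 0.00376 and 0.0202 ± 0.00225 (exact p = 0.3). LAMB1 over LAMC1 was 0.159 ± 0.00424 and 0.145 ± 0.00653, with no overlap of the groups, at the exact p of 0.1 that is the smallest this design can give. With GENCODE 29 lengths, which for LAMB1 differ from the deposited length, the ratio was 0.361 ± 0.00965 and 0.330 ± 0.0148, and the log2 difference and p are the same by construction. Of these 5 ratios none passed, with Benjamini-Hochberg adjusted p of 0.5 to 0.8.

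Genes with the pattern most like COL4A1 and COL4A5 over the 6 libraries were found from log2 CPM centred on its mean, over the 11555 tested genes whose counts averaged 100 or more. Nearest to COL4A1 by root mean square difference were ENSG00000256546 (0.0141), ZNF367 (0.0163), TFDP2, an E2F partner (0.0169), the histone demethylase KDM4A (0.0186) and FAHD2B (0.0191). COL4A1 itself varied by a root mean square of 0.0432 over the libraries, so a gene with no variation would lie closer to it than COL4A2, which ranked 2145th at 0.0647. For COL4A5 that value was 0.123. Nearest to COL4A5 were an unannotated locus (0.0256), SIPA1L1, a RAP GTPase activator (0.0270), DENND3 (0.0286), ENSG00000232389 (0.0311) and MCOLN3, a lysosomal channel (0.0332), while LAMB1 ranked 212th (0.0663) and COL4A6 511th (0.0804). The libraries share their depth and scaling across genes, so these are descriptions with no test.

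Wider lists of 59 basement membrane genes held 54 tested genes, of which 14 were lower and 3 higher in LX-2FAP, with a median log2 fold change of -0.14, beside 2.73% lower and 2.57% higher over all tested genes. The 59 were listed as other type IV collagen and laminin chains, other basement membrane proteins, receptors, enzymes of collagen IV synthesis and proteinases, and 5 of them (LAMB4, LAMC3, SMOC2, VWA1 and FREM1) had too few counts to test. Without LX-2FAP replicate 3, 3 of the 54 were called (ITGB4, MMP2 and MMP9, which were called with any 1 library left out), and without LX-2FAP replicate 2, 8 were. With the GC trend removed 11 were called, 7 lower and 4 higher, beside 1.15% lower and 3.39% higher over all genes in that fit, and 8 of these were among the 17. Of the 6 tested laminin chains in these lists, 3 fell and none rose. LAMA5, the α5 chain of mature vascular and epithelial laminins, fell from 68.4 ± 4.17 to 52.3 ± 7.72 CPM (SD, n = 3 each; log2 fold change -0.38, edgeR adjusted p 0.0167), and LAMB2, the β2 chain, fell from 154.7 ± 12.0 to 125.2 ± 8.81 CPM (-0.31, adjusted p 0.0120). LAMA3, the α3 chain of epithelial laminins, fell by 0.38 on the log2 scale, from 30.7 ± 0.973 to 23.7 ± 0.817 CPM (adjusted p 0.00761).

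Of 15 tested other basement membrane proteins 2 fell and none rose. FBLN2, fibulin-2, fell from 114.2 ± 9.61 to 86.7 ± 9.07 CPM (log2 fold change -0.40, edgeR adjusted p 0.00774) and AGRN, agrin, a heparan sulfate proteoglycan like perlecan, from 131.4 ± 11.7 to 101.1 ± 12.7 CPM (-0.38, adjusted p 0.0136). The other 13 ranged down to -0.54 and up to 0.08 on the log2 scale without passing.

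Among 10 receptors for these proteins 4 fell and 2 rose. ITGB4, the integrin β4 of hemidesmosomes, showed a log2 fold change of -0.93 (edgeR, SE 0.13, adjusted p 0.00352) at a low level, 8.60 ± 0.678 against 4.53 ± 0.883 CPM (SD, n = 3 each). BCAM, a receptor of laminin α5, showed -0.64 (adjusted p 0.0115), the laminin-binding integrin ITGA7 -0.35 (0.0221) and the collagen receptor DDR1 -0.31 (0.0191). ITGA2, of the collagen receptor α2β1, rose by 0.27 on the log2 scale (adjusted p 0.00957), and ITGA6, the α6 chain that pairs with β1 or β4 to bind laminin, by 0.25 (0.00765).

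Of 6 genes for breakdown of the basement membrane 3 fell and 1 rose. The type IV collagenases MMP2 and MMP9 fell by 0.76 and 0.86 on the log2 scale, from 28.4 ± 2.93 to 16.6 ± 2.52 CPM and from 21.3 ± 3.29 to 11.6 ± 2.62 CPM (SD, n = 3 each; edgeR adjusted p 0.00185 and 0.00441). BMP1, a proteinase that cleaves laminin and perlecan chains, fell by 0.35 (adjusted p 0.0117), and the stromelysin MMP3 rose by 0.43 (0.0498). MMP3 was called in 1 of the 6 fits that left out a library, that without LX-2FAP replicate 1. It was not called with scaling by library size alone (edgeR adjusted p 0.0579). Of 15 genes for modification, folding, export and crosslinking of collagen IV, 2 fell: LOXL2, a crosslinking enzyme, by 0.22 (adjusted p 0.0339) and PLOD1, a lysyl hydroxylase, by 0.19 (0.0492). The 9 genes not called with the GC trend removed were LAMA5 (adjusted p 0.111), LAMB2 (0.0565), AGRN (0.0932), ITGA7 (0.0865), DDR1 (0.0956), BMP1 (0.0604), LOXL2 (0.237), PLOD1 (0.375) and MMP3 (0.0529).

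**Figure D4:**
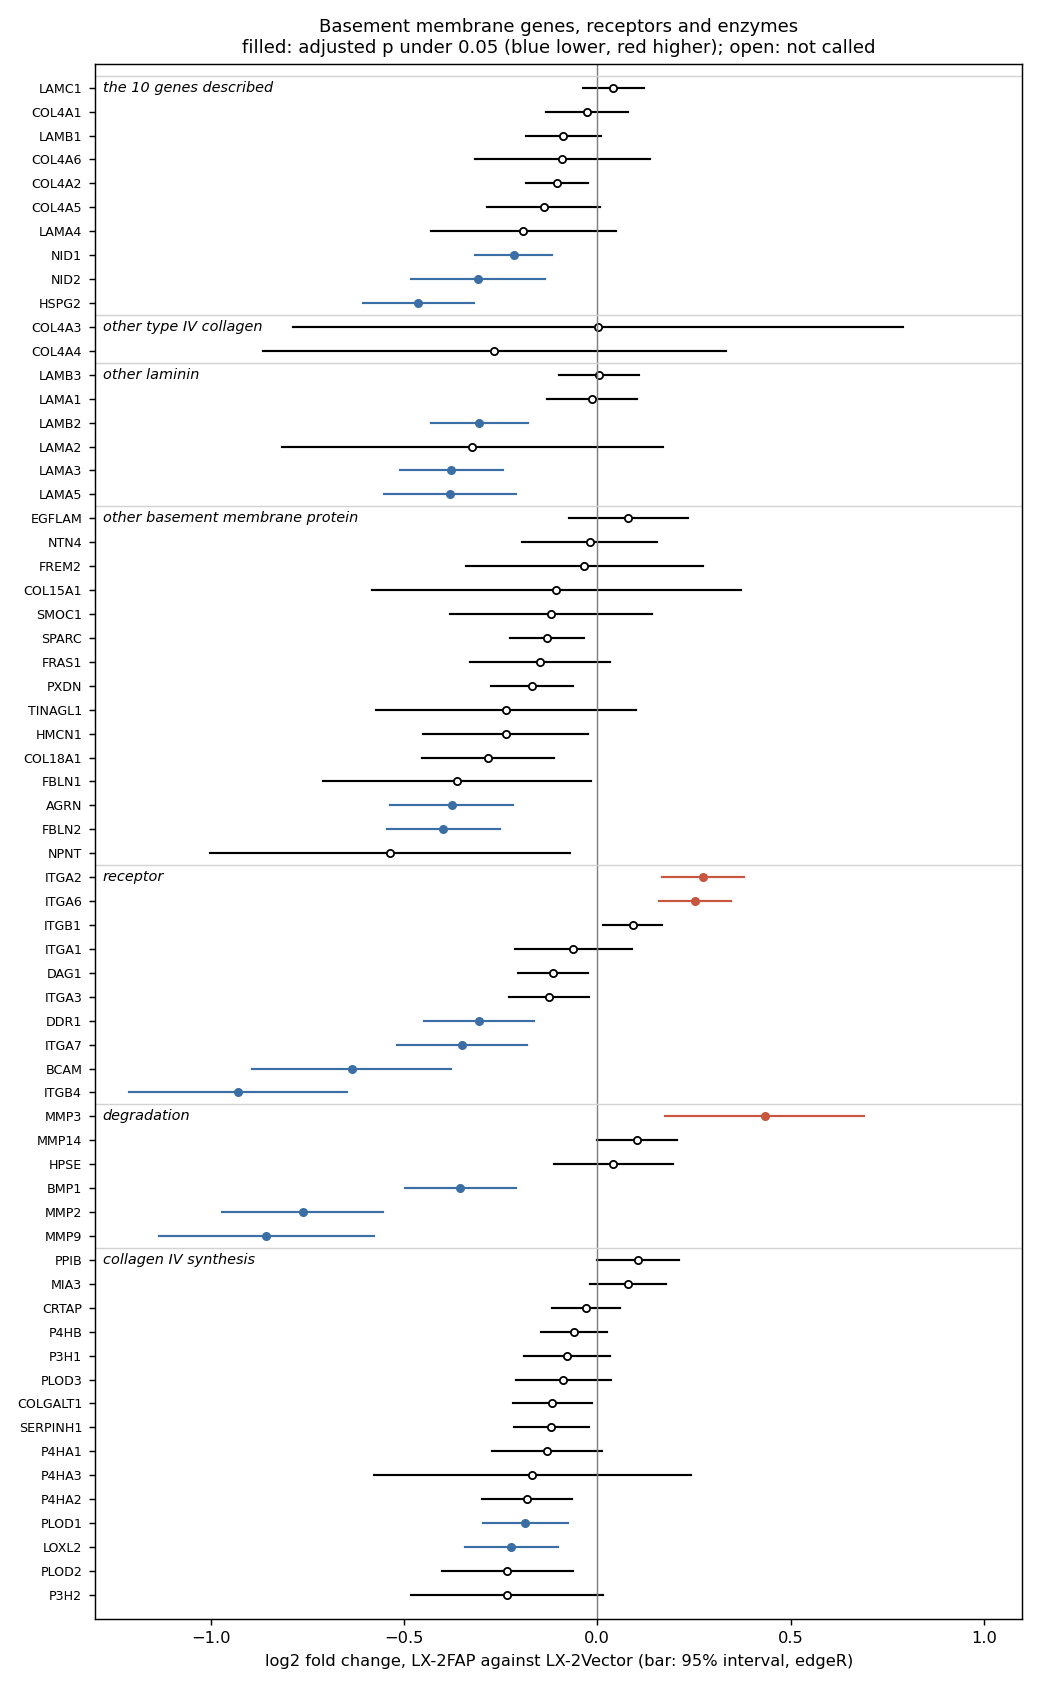
Log2 fold change (x axis, LX-2FAP against LX-2Vector, edgeR, bar the 95% interval) of the 10 genes and of the 54 tested genes of the wider lists, filled where the adjusted p was under 0.05 (blue lower, red higher). Among the 10 the filled points are HSPG2, NID2 and NID1, and in the wider lists 14 are blue and 3 red.

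Among the cell type markers 4 genes passed the test. COL1A1, the main fibrillar collagen chain, fell by 0.40 on the log2 scale (edgeR adjusted p 0.0135), PDGFRB, the stellate PDGF receptor, by 0.38 (0.0269), and VIM, vimentin, rose by 0.13 (0.0372). VWF, an endothelial marker at 2.46 ± 0.603 against 1.17 ± 0.438 CPM (SD, n = 3 each), fell by 1.06 (adjusted p 0.0268). Each of these 4 calls was lost without LX-2FAP replicate 2 and also without LX-2FAP replicate 3. The call of COL1A1 was also lost by the DESeq2 Wald test (adjusted p 0.0502), that of PDGFRB with the GC trend removed (0.0707) and that of VIM with library size alone (0.0928), while DESeq2 gave no adjusted p for VWF. The part of these levels in the fall of HSPG2, NID1 and NID2 was not tested.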

How the data were processed

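RNA of 6 LX-2 libraries (3 LX-2Vector, 3 LX-2FAP) was sequenced, and the titles of the samples gave each its group and number. The authors deposited whole-number counts per gene, not normalized, and FPKM values that they computed from count and gene length. The study's methods and the submitters' processing notes name HISAT2 2.0.5 for alignment and featureCounts 1.5.0-p3 for counting, with DESeq2 1.16.1 and edgeR for the comparison. The notes name the build hg18. Annotation release and use of strand are not given in the sources used here. Of the identifiers, 58337 were in GENCODE 29 (GRCh38), which gave the gene coordinates printed here, and 60.7% of the deposited gene lengths equalled its merged exon lengths, so the build behind the counts is uncertain. The labels describe ribosomal RNA depletion and the methods also a poly(A) isolation. All value columns were assigned to a sample, leaving 0 unmapped.

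The counts entered edgeR 4.0.16 (R 4.3.3) and its quasi-likelihood test after TMM scaling and the default filter (minimum count 10, minimum total 15), LX-2FAP against LX-2Vector with no covariate, with Benjamini-Hochberg adjustment over the 18275 tested genes and a threshold of 0.05. CPM was taken over the tested genes after TMM. Standard errors and 95% intervals came from the test statistic. Ratios of FPKM were compared with an exact 2-sided permutation test of log2 ratios. Depth was 17355700 to 26352060 counts per library. Pairs of replicates differed by more than counting error (chi-square per degree of freedom 2.05 to 4.88) and were counted as separate, but no source says that they were separate cultures, so p-values measure the spread between these libraries, which may be technical.

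The genes and lists were chosen with earlier results of these data known. All 10 genes were named, and of the other lists the genes called, or the 2 highest in FPKM where none was. Genes like COL4A1 and COL4A5 were the 5 with the smallest root mean square difference of centred log2 CPM. A marker with 2 rows in the table, RGS5, was left out, and 1 gene of the wider lists is not reported here. The neighbouring genes on the other strand, COL1A1, PDGFRB, VIM and VWF were named after their values were seen, and the length of LAMB1 and the stellate marker sum without VIM were examined after the data were seen. Alternatives were DESeq2 1.42.0 and its size factors, library size alone, other filters, trends on gene length or GC content removed (loess span 0.5), limma 3.58.1 on log2(FPKM + 1) and log2(FPKM + 0.1), a replicate block, other thresholds and each library left out. The scripts were tested on simulated data.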

Additional observations from a re-analysis of the deposited data

How the results depend on the processing

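The 3 calls among the 10 genes were made under DESeq2 size factors, both other filters, the gene length trend and the DESeq2 Wald test. Library size alone gave 4, with COL4A2 added, and removal of the GC trend gave 2, HSPG2 and NID1. Leaving out 1 library gave 1 to 3 calls, all lower, and the 1 call was HSPG2 without replicate 3 of LX-2Vector, or without replicate 2 or 3 of LX-2FAP. Calls numbered 0 with limma-trend on log2(FPKM + 1) and on log2(FPKM + 0.1), which called 2 genes of all tested, and 1 at an adjusted p under 0.01. With limma the adjusted p of HSPG2, NID1 and NID2 was 0.112 to 0.139. In the wider lists 17 calls became 3 to 23 with 1 library left out, 11 with the GC trend removed, 0 under both limma settings and 7 at the stricter threshold. Without LX-2FAP replicate 3, 26 genes of all tested were called.

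The sign turned for COL4A1 without LX-2Vector replicate 2 (-0.056 to 0.012 over the libraries left out), with the length trend removed (0.016) and with the GC trend removed (0.065), for COL4A2 with the GC trend removed (0.040), and for COL4A6 without LX-2FAP replicate 2 (-0.211 to 0.0088 over the libraries left out). No other sign turned among the 10 genes and the 17 called genes of the wider lists. Removing the GC trend moved the median of all tested genes from -0.01 to 0.03. The cause of these shifts was not tested.

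No pairing by replicate number was seen, with correlations of deviations of -0.039, 0.044 and -0.0096 between same-numbered libraries. Between libraries with unlike numbers they ran from -0.110 to 0.122. With 3 libraries per group, these values cannot show whether same-numbered libraries were prepared together. A replicate block gave 975 calls of all genes against 967, the same 3 calls among the 10 and 19 in the wider lists. FAP and 4 of the 5 ratios kept their direction under every alternative run, and the log2 difference of COL4A5 over COL4A6, -0.029, turned to 0.010 without LX-2FAP replicate 1 and to 0.0094 without LX-2FAP replicate 3. Depth limits COL4A3 and COL4A4, at 6 to 22 counts per library.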
